A study of Caenorhabditis elegans with 3 samples.

Results

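The DREAM complex, called DRM in worms, joins a retinoblastoma-like pocket protein and an E2F-DP transcription factor to a core of LIN proteins, and it is known for repressing cell cycle and germline genes. Its genes belong to class B of the synthetic multivulva (synMuv) group, which keeps vulval cell fates in check in Caenorhabditis elegans. The 8 genes described here are lin-54, lin-53, lin-9, lin-52 and lin-37, which encode the core, lin-35, which encodes the pocket protein, and efl-1 and dpl-1, which encode the E2F and DP subunits. They were taken by name from 19973 nuclear protein-coding genes. The question was whether Y5F2A.4, a zinc finger protein, was found at the starts of the genes for this complex.

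Chromatin immunoprecipitation with sequencing was done on whole L4 larvae of 1 strain, OP682, grown for 48 hours after L1 arrest. The worms carry unc-119(tm4063) and the integrated transgene wgIs682, in which Y5F2A.4 is fused to TY1, EGFP and FLAG tags and which also holds a wild-type unc-119 copy. DNA was recovered through the GFP tag from mixed-sex worms. The 3 libraries form 1 group: biological replicate 1 was sequenced as 2 technical libraries and biological replicate 2 as 1, and no condition is compared with another. No source used here gives the promoter that drives the fusion, its level or the cells that express it, and signal from different tissues cannot be told apart in whole worms.

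The 4 deposited lists hold 30000 candidate regions for replicate 1, 23415 for replicate 2, 28443 for the reads of both together (the combined list) and 635 thresholded regions. The candidate lists are peaks together with background, so a candidate region may be background. The signal value that the authors' caller gave each region has no stated unit. It ranks regions within a list and cannot be compared in size between lists. The 635 thresholded regions were the 635 strongest of the combined list, with a lowest signal of 100.454, and the next combined region had 100.448. A summit was given to a gene when it lay no more than 1000 bp upstream and 200 bp downstream of its annotated 5' end. Negative positions are upstream, and positions are in ce11, which is WBcel235. Read depth is unknown, so a missing summit does not show that the protein was absent.

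The stretches around the summits of lin-54, lin-9, lin-52 and efl-1 are shown first. They include a strong, a borderline and 2 weaker sites, but they are not a selection by signal and those of the other genes are not printed. They were read from the RefSeq WBcel235 genome, 5′ to 3′ on the strand of the named gene, up to 75 bp to each side of the summit within the region, and end where an annotated exon begins. Capitals mark matches to the words TTTGAA (or TTCAAA on the other strand) and GCGCTCCA (or TGGAGCGC), which are described further on.
lin-54, chrIV:13240652-13240741, plus strand, thresholded summit: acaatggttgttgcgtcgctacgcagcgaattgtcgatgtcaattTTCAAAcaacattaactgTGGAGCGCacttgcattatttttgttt
lin-9, chrIII:8904236-8904386, minus strand, thresholded summit: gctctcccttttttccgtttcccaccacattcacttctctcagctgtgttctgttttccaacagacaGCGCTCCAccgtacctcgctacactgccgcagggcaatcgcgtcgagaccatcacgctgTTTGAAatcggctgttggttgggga
lin-52, chrIII:9824787-9824876, minus strand, combined summit: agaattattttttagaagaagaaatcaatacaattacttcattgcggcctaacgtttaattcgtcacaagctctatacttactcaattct
efl-1, chrV:16965793-16965943, minus strand, combined summit: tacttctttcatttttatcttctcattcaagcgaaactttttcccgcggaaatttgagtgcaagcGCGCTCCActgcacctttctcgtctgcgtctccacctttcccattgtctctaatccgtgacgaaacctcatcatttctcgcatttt

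Thresholded summits were found in the windows of 3 of the 8 genes, lin-54, lin-53 and lin-9, while 1.46% of all protein-coding genes had one. For lin-53 and lin-9 the summit was nearer to that gene's 5' end than to any other, which held for 0.696% of all protein-coding genes. This count of 2 fell to 1 with either replicate left out (lin-9 from replicate 2, lin-52 from replicate 1). It was also 1 in the stronger 50% of the list (lin-53). The shares of all genes under these settings were not counted. In both replicates the lin-53 summit was nearer to nra-2. For lin-54 the nearest 5' end was that of rpl-12, a gene for a protein of the large ribosomal subunit. In the thresholded list, 139 of the 291 genes with a summit in their window (47.8%) had the nearest 5' end. For the rest the nearer 5' end could also be that of a non-coding RNA gene, so these need not be pairs like lin-54 and rpl-12. In the combined list 6 of the 8 genes had a summit (30.4% of all genes), the additions being lin-52, lin-35 and efl-1, and 5 of the 8 also had the nearest 5' end (22.4% of all genes). The additions were unlike in the deposited −log10 q, which was 1.75 at lin-52, 0.884 at lin-35 and 0.303 at efl-1, against 1.97 for every thresholded region. The replicate 1 list held a summit for 7 genes (30.7% of all genes), of which 5 were nearest (22.8%). The replicate 2 list held one for 6 genes (26.9% of all genes), of which 3 were nearest (20%). dpl-1 had none in any list. Among the 620 strongest nuclear regions of each replicate, as many as there are nuclear thresholded peaks, replicate 1 held summits for lin-54 and lin-52 (2 genes, 1.34% of all genes) and replicate 2 for lin-54, lin-53 and lin-9 (3 genes, 1.51%). The genes were picked by name with earlier results of these data known, and the libraries form 1 group. These shares are therefore descriptions and were not tested.

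**Figure D1:**
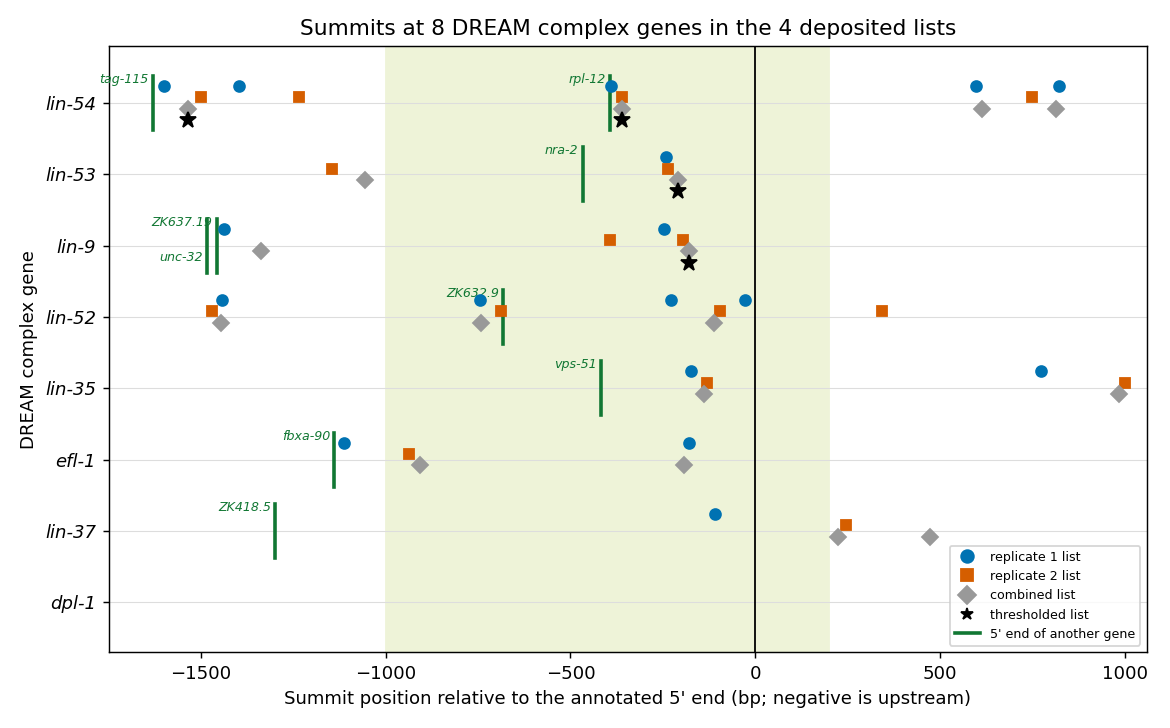
Position of every summit of the 4 lists relative to the annotated 5' end of each of the 8 genes (x axis, bp, negative is upstream), with 1 row per gene, the window of 1000 bp upstream to 200 bp downstream shaded, and green bars at 5' ends of other genes. Within the shaded window, the summits at lin-54 lie by the rpl-12 bar and those at lin-53 lie between the lin-53 and nra-2 5' ends. Those at lin-9 within it stand apart from other 5' ends. Further summits lie outside the window, such as those by ZK637.19 in the lin-9 row and beyond nra-2 in the lin-53 row. dpl-1 has none in the range drawn.

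Among the core genes, lin-54 had the strongest site. It encodes the subunit that contacts DNA through its cysteine-rich CXC domains. The signal was 79.6 in the replicate 1 list (rank 165 of 30000), 118 in the replicate 2 list (rank 95 of 23415) and 202 in the combined and thresholded lists (rank 109). Both replicates thus placed it in the top 0.55% of their lists. The thresholded region, IV 13240637 to 13240741, is 105 bp wide, whereas the commonest width in that list is 376 bp. Its summit lay 360 bp upstream of lin-54 (IV 13241044 to 13243401, plus strand) and 33 bp upstream of rpl-12, which is transcribed the other way. The 2 genes' 5' ends are 393 bp apart. Relative to lin-54 the summit lay at -391 bp in replicate 1 and -360 bp in replicate 2, and relative to rpl-12 at -2 bp in replicate 1 and -33 bp in replicate 2. In all 4 lists the summit was therefore at the rpl-12 side of the shared interval. A further thresholded region (signal 105, rank 582) had its summit at -1536 bp from lin-54, outside the window and -94 bp from tag-115.

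lin-53, which encodes a WD-repeat protein of the RbAp48 type that binds histones and also serves other chromatin complexes, came second. Its signal was 47.3 in the replicate 1 list (rank 783), 84.2 in the replicate 2 list (rank 259) and 133 in the combined and thresholded lists (rank 314). These ranks put it in the top 2.61% of the replicate 1 list and the top 1.11% of the replicate 2 list. The region, I 9619781 to 9620156, lies between lin-53 (I 9618196 to 9619760, minus strand) and nra-2, transcribed the other way, with 467 bp between their 5' ends. The combined summit was 209 bp upstream of lin-53 and 258 bp upstream of nra-2, so lin-53 was nearer by this list. The summits of the replicates were 3 bp apart, at -240 bp in replicate 1 and -237 bp in replicate 2, and there nra-2 was nearer, at -227 and -230 bp. Either replicate alone thus gave the peak to nra-2. The paralogue rba-1, whose 5' end lies 1653 bp downstream of that of lin-53, had a summit in the replicate 1 list alone (signal 25.5, rank 7710).

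lin-9 had the third thresholded site, close to the lower end of the list. Its protein is a core subunit conserved in flies and humans. The combined and thresholded signal was 101.5, at rank 623 of 635. The replicates differed: the signal was 30.04 in the replicate 1 list (rank 4307, −log10 q of 0.618) and 69.0 in the replicate 2 list (rank 428, −log10 q of 1.82). That −log10 q is the maximum of the replicate 2 list, which lin-54 and lin-53 also had, so it does not single out lin-9. The replicate 1 rank was far down the list, at 14.4%, and the replicate 2 rank near the top, at 1.83%. Of the 615 nuclear thresholded peaks with a summit within 200 bp in both replicates, 10 (1.63%) ranked lower than lin-9 in replicate 1. The region, III 8904123 to 8904498, lies upstream of lin-9 (III 8900237 to 8904131, minus strand), with the summit at -180 bp in the combined list, -246 bp in replicate 1 and -194 bp in replicate 2. The nearest other 5' ends are those of the ncRNA gene ZK637.19, at -1457 bp from the lin-9 5' end, and of unc-32, at -1484 bp. lin-9 was thus the one thresholded gene of the 3 whose summit had no other 5' end within 1000 bp.

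**Figure D2:**
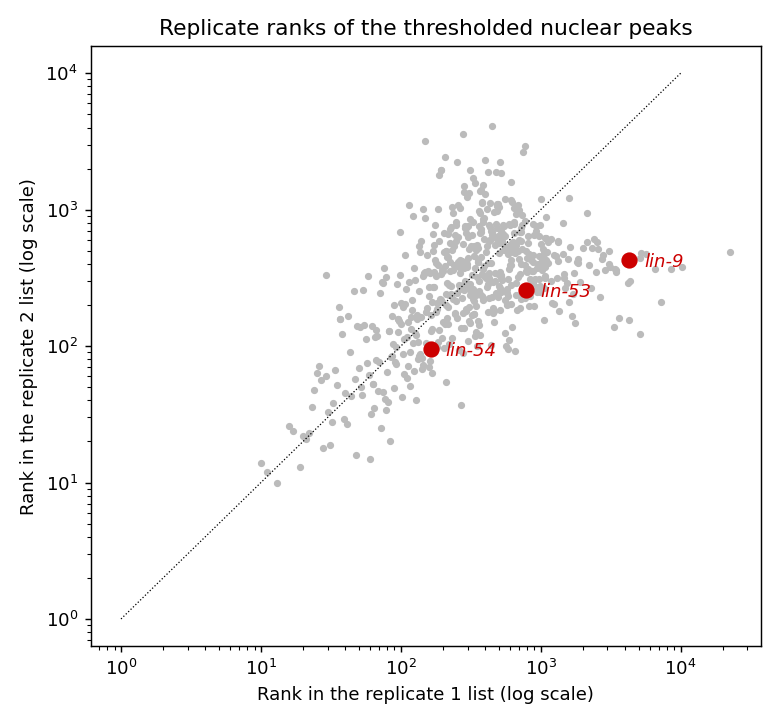
Rank by signal in the replicate 1 list (x axis, log scale) against rank in the replicate 2 list (y axis, log scale) for the 615 nuclear thresholded peaks with a summit within 200 bp in both, with the peaks of lin-54, lin-53 and lin-9 in red and equal ranks on the dotted line. lin-54 is at 165 and 95, lin-53 at 783 and 259, and lin-9, at 4307 and 428, lies far to the right of the line.

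lin-52 was the strongest of the 8 without a thresholded summit and the second strongest in replicate 1. LIN-52 is a small core subunit, and its human homologue links the core to the pocket protein. Its signal was 52.6 in the replicate 1 list (rank 555), 42.3 in the replicate 2 list (rank 2154) and 87.7 in the combined list (rank 928). Here replicate 1 was the stronger, the reverse of lin-9. The summits were at -28 bp in replicate 1, -96 bp in replicate 2 and -112 bp in the combined list, where the region is III 9824674 to 9825049. lin-52 (III 9824083 to 9824750, minus strand) starts 127 bp after the end of ZK632.9, which is on the same strand. A second group of summits in the window lay at the ZK632.9 5' end, at -744 bp, -688 bp and -743 bp in the same order of lists, with signals of 17.8, 26.5 and 35.3. Replicate 1 had a further summit between them, at -227 bp in an exon of ZK632.9 (signal 28.7, rank 5079).

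lin-37, another core gene (III 7070890 to 7072552, minus strand), had a summit in its window in the replicate 1 list alone, at -108 bp with a signal of 30.9 (rank 3872). That summit lay in an exon of ZK418.5, which ends 61 bp upstream on the same strand. In replicate 2 the nearest summit was at 245 bp, 45 bp beyond the window, with a signal of 36.6 (rank 3898), and in the combined list at 225 bp with 40.9 (rank 12898). The 2 replicates therefore placed their weak candidates on opposite sides of the 5' end, 353 bp apart, and the combined region was weak as well.

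lin-35, the gene of the pocket protein (I 5807709 to 5815637, plus strand), had a candidate summit in all 3 candidate lists and none in the thresholded list. The signal was 29.7 in replicate 1 (rank 4472), 38.6 in replicate 2 (rank 3135) and 69.3 in the combined list (rank 2004). Both replicates ranked it in the top 14.9% of their lists, well below lin-54. The summits lay at -173, -130 and -139 bp, nearer to lin-35 than to vps-51, a gene for a subunit of a vesicle-tethering complex whose 5' end lies 418 bp upstream, in the other direction of transcription. A further 4 combined summits lay in the body of lin-35. The strongest, at 5166 bp with a signal of 46.7 (rank 8535), was nearer to the 5' end of C32F10.4, on the other strand. So were those at 2001 and 2540 bp, whereas that at 985 bp was nearest to lin-35.

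The E2F and DP genes had no strong site in either replicate. efl-1 (V 16958590 to 16965675, minus strand) had a signal of 25.15 in replicate 1 (rank 8059), 29.9 in replicate 2 (rank 8446) and 51.9 in the combined list (rank 5886). The replicate 1 summit lay at -179 bp and the replicate 2 summit at -936 bp, 757 bp apart, the second being 203 bp from the 5' end of fbxa-90. They are thus separate candidates, and replicate 2 had no summit at the efl-1 start. The combined list held both, at -193 bp with the signal given and at -908 bp, nearer to fbxa-90, with 45.2 (rank 9507). Replicate 1 also had a summit by fbxa-90, at -1113 bp and outside the window (signal 18.8, rank 17960). dpl-1 (II 9169910 to 9172565, plus strand) is 2080 bp from the nearest other 5' end. Its nearest summits were inside the gene, at 1805 bp in replicate 1 (signal 18.5, rank 18757) and 1360 bp in replicate 2 (signal 25.6, rank 13955), and in the combined list the nearest was at 3188 bp.

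**Figure D3:**
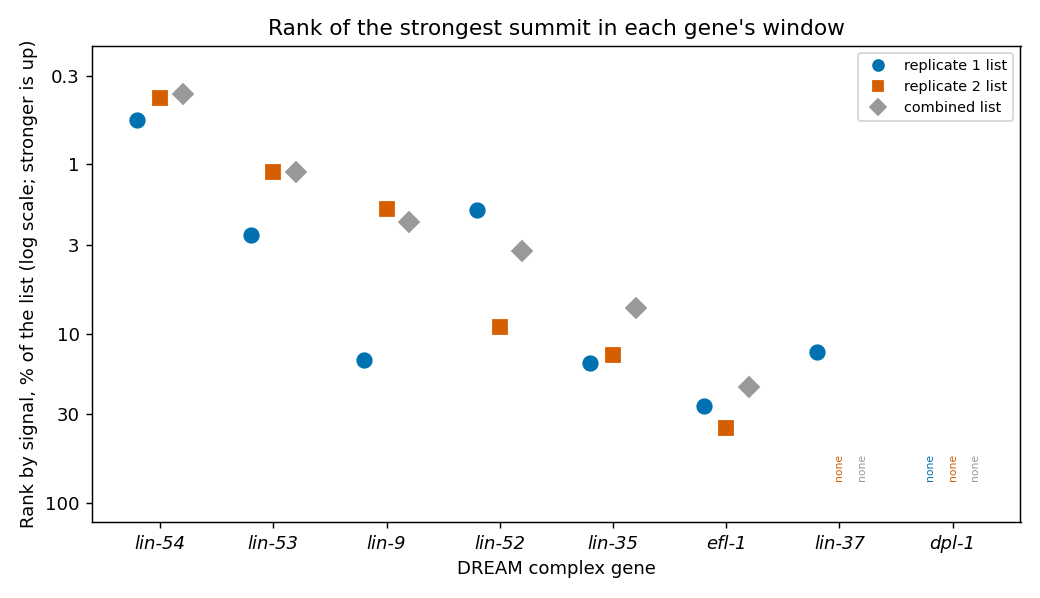
Rank of the strongest summit in the window of each of the 8 genes, as a percentage of the list (y axis, log scale, stronger is up), in the replicate 1, replicate 2 and combined lists, with "none" where a list has no summit in the window. lin-54 lies within the top 0.55% in all 3 lists, lin-9 is at 14.4% in replicate 1 and 1.83% in replicate 2, and dpl-1 has none.

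Set against all genes with a summit in the combined list, the order was lin-54, lin-53, lin-9, lin-52, lin-35 and efl-1. Of those 6067 genes, 59 (0.972%) had a higher signal than lin-54, 153 (2.52%) than lin-53 and 283 (4.66%) than lin-9. For lin-52 the share was 6.77%, for lin-35 12.1% and for efl-1 27.3%. The place of lin-52 relative to lin-53 and lin-9 was not stable between replicates. In replicate 1, 3.85% of the genes with a summit were above lin-52, 5.13% above lin-53 and 19.9% above lin-9. In replicate 2, 14.1% were above lin-52, 2.36% above lin-53 and 3.70% above lin-9. lin-37, with no combined summit in its window, was also above lin-9 in replicate 1, at 18.25%. lin-54 was first in both replicates. With 1 value per replicate no spread can be given for these ranks.

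**Figure D4:**
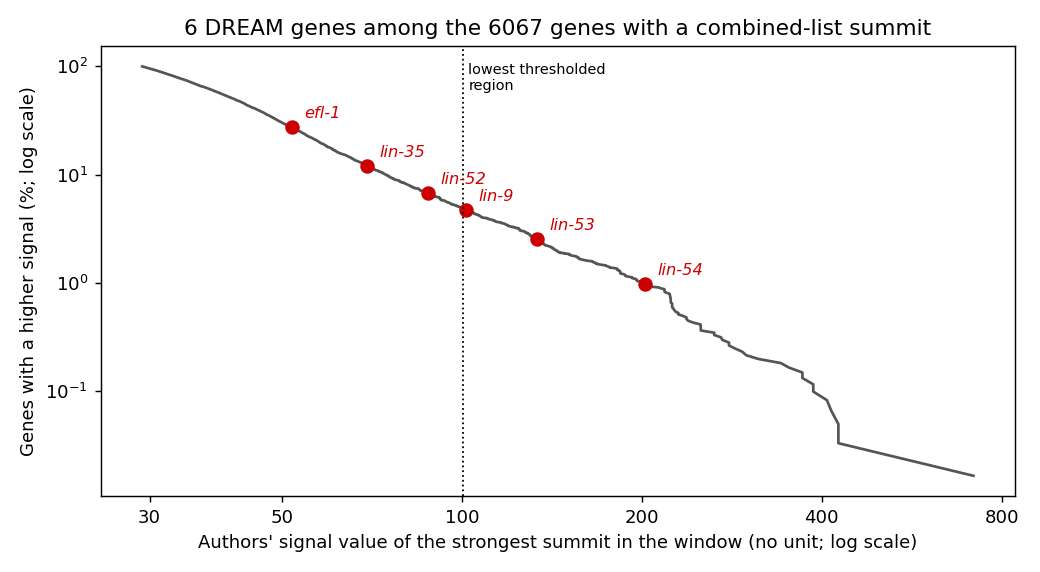
Share of genes with a higher signal (y axis, %, log scale) against the signal of the strongest combined-list summit in the window (x axis, no unit, log scale) for 6067 protein-coding genes, with the 6 DREAM complex genes in red and the lowest thresholded signal dotted. lin-54, lin-53 and lin-9 lie right of the dotted line, lin-9 next to it, and lin-52, lin-35 and efl-1 lie left of it.

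Of the 620 nuclear thresholded summits, 257 (41.5%) lay at most 200 bp from a gene for snRNA, snoRNA or tRNA, and the 3 at DREAM complex genes were not among them. The nearest such gene to a DREAM complex 5' end was the snoRNA gene JC8.15, 1967 bp from lin-54, and for the other 7 genes the distance ran from 9125 bp for lin-52 to 152479 bp for efl-1. The word GGTTCG, from the B box of tRNA genes, was in none of the 7 summit windows of 151 bp that the genes gave (each gene's thresholded summit, or else its combined or replicate 1 summit), while 21.1% of 620 thresholded windows and 3.96% of combined windows held it, on either strand.

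Words that the complex itself is known to read were also searched on both strands, TTCGAA and TTTGAA for the cell cycle genes homology element read by LIN-54 and GCGCGAAA and GGCGC for E2F. TTTGAA was in 4 of the 7 summit windows, the thresholded ones of lin-54, lin-53 and lin-9 and the replicate 1 one of lin-37. The combined windows, those of lin-52, lin-35 and efl-1, did not hold it. It was in 22.3% of all thresholded and 29.7% of all combined windows. No share was counted for replicate 1 windows, so the 7 pooled windows have no single matching share for any word. GGCGC was in 1 of the 7, that of lin-54, against 26.5% of thresholded and 11.4% of combined windows. TTCGAA was in none of the 7, against 10.2% and 8.08%, and GCGCGAAA in none, against 0.968% and 0.816%. In the 300 bp upstream of the 5' ends, GCGCGAAA was found for lin-54 (at -288 bp) and lin-9 (at -80 bp), and in 1.29% of all promoters of that length. GGCGC was found for 2 of the 8 genes, lin-54 and dpl-1, and in 14.1% of all promoters. TTCGAA was found for 1, lin-37, and in 18.0% of all promoters, and TTTGAA for 6 and in 64.5%. At lin-9 the GCGCGAAA match lay outside the 151 bp around the summit, and at lin-54 it ran past the edge of them.

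The stretches printed above leave out lin-53, lin-35 and lin-37, although lin-53 had a higher combined signal than lin-9. The word GCGCTCCA was noticed by reading those printed stretches, so its presence there is only a description. It stood in the windows of lin-54, lin-9 and efl-1, 3 of the 7, and was in 13 of 620 thresholded windows (2.10%), 0.767% of combined windows and 1.44% of promoters of 300 bp. At lin-9 it ran from -188 to -181 bp, next to the summit at -180 bp, and at efl-1 from -203 to -196 bp, beside the combined summit at -193 bp. At lin-54 it ran from -329 to -322 bp on the other strand, with the summit at -360 bp. It was absent from the windows of lin-53, lin-52, lin-35 and lin-37. The windows differed in base composition. G and C made up 54.3% at lin-9, 50.3% at lin-53 and 46.4% at lin-54, whose summits are thresholded, against a median of 46.4% in thresholded windows. The share was 44.4% at efl-1, 39.7% at lin-35 and 30.5% at lin-52, whose summits come from the combined list, against a median of 40.4% there. At lin-37, with a replicate 1 summit, it was 25.2%.

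Of 65 other genes, from 5 lists of synMuv, chromatin, cell cycle and germline genes, 2 had a thresholded summit (3.08%, against 1.46% of all genes). These lists do not form 1 pathway and were also chosen with earlier results of these data known. A combined summit, given for each list below, was held by 30.4% of all genes. Of 13 further class B synMuv and associated chromatin genes, such as lin-13, hpl-2 and let-418, 0 had a thresholded summit and 5 a combined one (38.5%). Of 8 class A and C genes, 1 had a thresholded summit and 4 a combined one (50%). That gene was epc-1, an Enhancer of Polycomb homologue, with a signal of 280 (rank 47) and the summit at -202 bp, 10 bp further than from Y111B2A.34. Of 12 E2F relatives and G1 regulators, including cye-1 and cki-1, 0 had a thresholded summit and 5 a combined one (41.7%). Of 22 DNA replication and mitosis genes, 1 had a thresholded summit and 6 a combined one (27.3%). It was pcn-1, the PCNA sliding clamp gene, with a signal of 137 (rank 294), the summit at -289 bp and no nearer 5' end. As at lin-9, its ranks differed, at 1601 in replicate 1 and 210 in replicate 2. Of 10 P granule and synaptonemal genes, 0 had a thresholded summit and 3 a combined one (30%).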

How the data were processed

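The authors deposited 4 region lists in assembly ce11, per the labels. Per the notes deposited with them, candidate regions were made from replicate 1, from replicate 2 and from both together, each against a control, and were thresholded with the irreproducible discovery rate. The technical libraries of replicate 1 share 1 alignment and count as 1 replicate. No source used here names the aligner, peak caller, threshold or versions, and the control reads were not analysed here. Each deposited region has a signal value, a score of the authors' caller without a stated unit, and a deposited −log10 q, which was 1.97 for every thresholded region. A summit is the deposited start plus the deposited offset, another value used as the authors gave it.

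Genes and 5' ends came from Ensembl release 115 for WBcel235, whose chromosomes contain every region. Pseudogenes and piRNA genes were not counted as nearest genes. Counts were made in Python 3.11.15 and the window rule was tested on simulated summits. No p-value was computed, since 2 biological replicates of 1 group allow no contrast. The genes, lists and words were chosen with earlier results of these data known. Named genes were the 8 members, the genes nearest to their summits, listed genes with a thresholded summit, and the tagged gene, which had no summit in its window in any list. Other windows, 5' ends, overlap rules and each replicate left out were tried. Mappability, copy number and the control enter such scores and could not be checked without reads.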

Additional observations from a re-analysis of the deposited data

How the results depend on the processing

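Of 39 alternatives, 35 left the count within 1.5 times. Thresholded genes numbered 3 in every window tried, with all transcript 5' ends and with any overlap. The count of all 19973 protein-coding genes with a thresholded summit moved more, from 291 in the main window. It was 208 with 500 bp upstream to 100 bp downstream, 460 with 2000 bp upstream to 500 bp downstream and 338 with any overlap. All genes were not recounted with 1000 bp to each side or with all transcript 5' ends. Without replicate 1, the 620 strongest nuclear regions of replicate 2 gave 3, lin-54, lin-53 and lin-9 (1.51% of all genes). Without replicate 2, those of replicate 1 gave 2, lin-54 and lin-52 (1.34% of all genes). Under this cut at 620 regions lin-54 alone was found by each replicate, and its summit was nearer to rpl-12. In the full replicate lists lin-53, lin-9, lin-52, lin-35 and efl-1 also had a summit in both, though those at efl-1 were 757 bp apart. The stronger 50% of the thresholded list gave 2, lin-54 and lin-53. The count that also had the nearest 5' end was 2, and was 1 in the stronger 50% (lin-53) and 1 without either replicate (lin-9 from replicate 2, lin-52 from replicate 1). The shares of all genes were not counted for the stronger 50% of the list, nor for the nearest 5' end with a replicate left out. No paired analysis was possible because the libraries form 1 group and no test was run. Depth is unknown, so weak or missing summits cannot be told apart from low coverage.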

Other observations

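Upstream of lin-52, at -1445 bp and outside the window, the combined list held a region almost as strong as that at the lin-52 start, with a signal of 85.7 (rank 998). The replicates ordered the 2 regions in opposite ways: the upstream one ranked 9349 in replicate 1 and 565 in replicate 2, and the one at the start ranked 555 and 2154. It lay 763 bp upstream of ZK632.9. The lin-54 interval was the reverse case, with the rpl-12 region (ranks 165 and 95) ahead of the tag-115 region (ranks 1721 and 346) in both replicates.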
